A study of Mus musculus with 16 samples.

Results

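Regions of open chromatin that appeared at the double positive (DP) stage of mouse thymocyte development and were still present in CD4 and CD8 single positive (SP4 and SP8) cells were selected on the peak lists of the 4 stages. Overlapping peaks (1 bp or more) were joined into merged regions, and such a region was taken when it held a DP, an SP4 and an SP8 peak and no peak of the double negative (DN) stage. This gave 3286 of 185978 merged regions (1.77%), a number that rose to 7160 when equal numbers of peaks were taken from each list. The regions were thus chosen by the presence of peaks, and their peak heights are given as a description. DN, DP, SP4 and SP8 thymocytes had been sorted by flow cytometry from 4 wild-type C57BL/6J mice of 9 weeks (Mouse4144, Mouse300, Mouse4220 and Mouse302) and assayed by ATAC-seq, in which a transposase inserts adapters into accessible DNA, giving 16 libraries, 4 per stage. Each list pools the mice of its stage, so no value has a spread between mice, and the lists give no read depth behind a peak. The 3286 regions were compared with 63369 regions called at all 4 stages, 9619 called at DP alone and 7101 called at SP4 and SP8 alone.

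DN cells lack both coreceptors and rearrange the T cell receptor (TCR) beta locus. Cells that pass the beta checkpoint divide, become DP, rearrange the TCR alpha locus and express the complete receptor. Those that receive a suitable signal are positively selected and mature into SP4 or SP8 cells, a passage in which E proteins, RORγt, TCF1, LEF1, ETS1, RUNX factors, SATB1 and BCL11B are all known to act.

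Sequences at 8 of the regions are shown as examples of their motif matches. They are 151 bp windows centred on the DP summit, read from the plus strand of mm10 (GRCm38). The first 6 are those with a match among the 12 regions that were highest at their lowest stage, and the other 2 are the members at *Ets1* and *Foxo1* with the highest value at their lowest stage. Capitals mark matches, on either strand, to an E-box (CAGCTG or CAGGTG), TCF7/LEF1 (CTTTGAT or CTTTGAA or CTTTGTT), ETS (CAGGAAG or CCGGAAG), RUNX (TGTGGTT or TGCGGTT) or ROR (TAGGTCA or TGGGTCA) consensus.
*Casp8*, chr1:58806779-58806929: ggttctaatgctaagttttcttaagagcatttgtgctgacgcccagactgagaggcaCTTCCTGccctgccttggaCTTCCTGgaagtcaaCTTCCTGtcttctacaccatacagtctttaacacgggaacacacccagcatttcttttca
*Senp1*, chr15:98067566-98067716: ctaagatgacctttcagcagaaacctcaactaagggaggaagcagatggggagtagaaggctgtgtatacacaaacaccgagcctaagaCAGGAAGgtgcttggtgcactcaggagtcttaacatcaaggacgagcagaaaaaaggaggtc
*Dpy19l3*, chr7:35729684-35729834: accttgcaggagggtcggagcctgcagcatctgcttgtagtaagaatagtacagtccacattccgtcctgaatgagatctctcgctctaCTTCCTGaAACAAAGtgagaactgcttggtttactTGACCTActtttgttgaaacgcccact
*Tbl1xr1*, chr3:21899527-21899677: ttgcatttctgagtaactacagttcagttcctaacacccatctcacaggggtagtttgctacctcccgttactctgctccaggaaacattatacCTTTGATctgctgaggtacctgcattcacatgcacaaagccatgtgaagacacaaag
*Erc1*, chr6:119749176-119749326: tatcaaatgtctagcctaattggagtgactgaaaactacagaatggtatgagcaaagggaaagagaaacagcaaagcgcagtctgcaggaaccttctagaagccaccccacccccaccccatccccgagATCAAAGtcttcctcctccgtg
*Tmem135*, chr7:89253415-89253565: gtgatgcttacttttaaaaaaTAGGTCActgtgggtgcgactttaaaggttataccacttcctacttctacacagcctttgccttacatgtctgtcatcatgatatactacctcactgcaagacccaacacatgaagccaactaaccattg
*Ets1*, chr9:32660232-32660382: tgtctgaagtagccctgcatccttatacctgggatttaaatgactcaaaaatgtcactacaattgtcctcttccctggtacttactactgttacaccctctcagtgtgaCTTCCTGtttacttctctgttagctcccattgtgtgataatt
*Foxo1*, chr3:52280804-52280954: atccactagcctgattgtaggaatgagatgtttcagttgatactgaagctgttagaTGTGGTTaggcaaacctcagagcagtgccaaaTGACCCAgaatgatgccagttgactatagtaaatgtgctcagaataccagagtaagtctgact
The *Casp8* window holds 3 copies of the ETS consensus, all in the orientation CTTCCTG, and the *Dpy19l3* window holds ETS, TCF7/LEF1 and ROR matches within a promoter. The other windows carry 1 or 2 matches each. The motif shares given below count only the 100 bp around the summit, less than the 151 bp printed here. The *Erc1* match and the ROR matches of *Tmem135* and *Dpy19l3* lie outside those 100 bp and are not counted there. A match is a description of the sequence and does not show that a factor was bound.

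The height of a peak is its fold enrichment over the local background, as the authors' caller gave it, expressed here as a percentile within the list of its own stage, so that a higher percentile means a higher place among the peaks of the same stage. At DP the regions had a median percentile of 28.1 (quartiles 12.6 and 46.0), which corresponds to a fold enrichment of 3.98. At SP4 the median was 41.2 (21.4 and 62.5), with a fold enrichment of 5.05. At SP8 it was 34.1 (17.2 and 52.0), with a fold enrichment of 4.58. The regions were therefore mostly low peaks at every stage, and they stood lowest at the stage at which they were first called. Regions called at all 4 stages had medians of 68.2 at DP, 69.4 at SP4 and 67.1 at SP8. Regions called at DP alone had a median of 19.3 at DP, and those called at SP4 and SP8 alone had medians of 37.0 and 31.0. Peaks in the regions also widened after DP, from a median of 153 bp to 196 bp at SP4 and 179 bp at SP8. Peaks in regions called at all 4 stages widened too, from 337 bp to 366 bp and 362 bp. Only 110 regions lay above the 75th percentile at DP, against 444 at SP4 and 211 at SP8, and 32 did so at all of these stages.

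**Figure D1:**
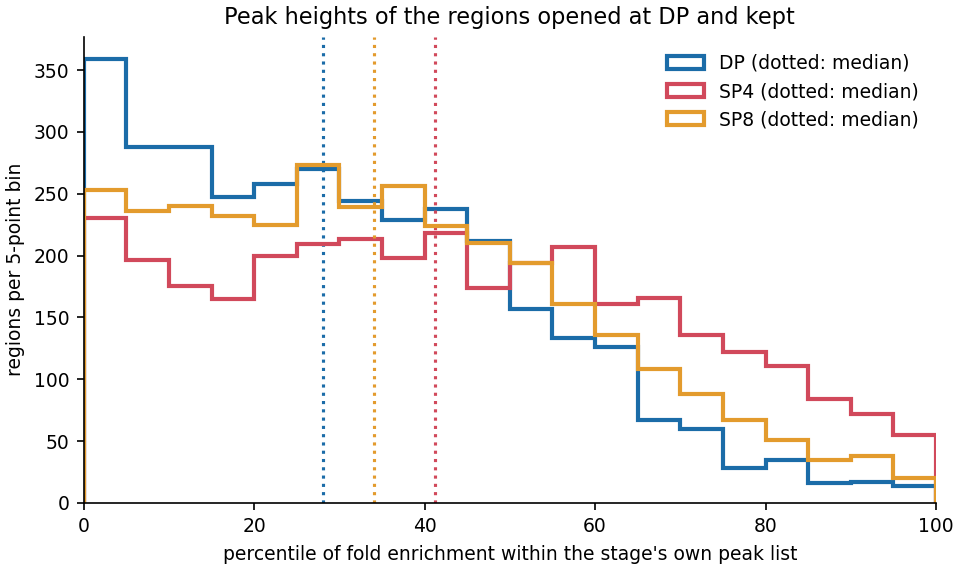
Number of regions (of 3286) in each 5-point bin of the percentile of fold enrichment within the DP, SP4 or SP8 peak list, with the median of each stage dotted. The DP curve is highest in the lowest bins and its median is 28.1, while the SP4 curve reaches furthest to the right and has a median of 41.2.

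Of the 16475 regions called at DP and not at DN, 9619 (58.4%) were called at neither SP stage, 2302 (14.0%) were also called at SP4 alone, 1268 (7.70%) at SP8 alone and 3286 (19.9%) at both. The kept share was 15.6% (1440 of 9232) below the 25th percentile at DP, 21.8% (1193 of 5465) between the 25th and 50th percentile, 36.5% (543 of 1488) between the 50th and 75th and 37.9% (110 of 290) above. Regions with higher DP peaks were thus more often among those kept, up to the 75th percentile, although the presence of these same peaks had chosen them. By chromosome the kept share ran from 16.7% on chromosome 4 to 22.1% on chromosome 17.

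Absence of a DN peak was the sharp edge of the choice. The nearest DN peak lay a median of 1404 bp away, within 100 bp of 170 regions (5.17%) and within 500 bp of 964 (29.3%). Just inside the edge, 7 regions had a DN peak within 20 bp, and their median percentiles were 16.2 at DP, 12.1 at SP4 and 15.7 at SP8. Just outside it, 4 merged DP, SP4 and SP8 regions shared 1 to 20 bp with a DN peak and were left out, with medians of 18.4, 31.7 and 19.4. A DN signal under the caller's threshold would also count as absence.

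Both SP percentiles were above the DP percentile in 1611 regions (49.0%, against 37.9% of regions called at all 4 stages) and both below it in 793 (24.1%). The median shift from DP was 9.83 points at SP4 and 3.63 points at SP8, whereas regions called at all 4 stages shifted by 0.332 and -0.152 points. Differences of over 25 points in the same direction at both SP stages were found upward in 438 regions and downward in 114. Gains in rank were thus more frequent than losses, but the regions started low at DP, which leaves more room to rise than to fall. The lists also differ in length (107110 peaks at DP, 115074 at SP4 and 104411 at SP8), which can move the percentiles of low peaks. The part of list length in these shifts was not tested. Across the 3286 regions, the percentiles of SP4 and SP8 were related most closely (Spearman's rho 0.657), followed by DP and SP4 (0.470) and DP and SP8 (0.420). These points share the pooled libraries of each stage and the sequence of each region, and no p-value is given for them. The SP4 and SP8 summits fell within 50 bp of the DP summit in 2533 (77.1%) and 2583 (78.6%) regions, with a median offset of 19 bp for either, so the most accessible point mostly stayed in place.

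**Figure D2:**
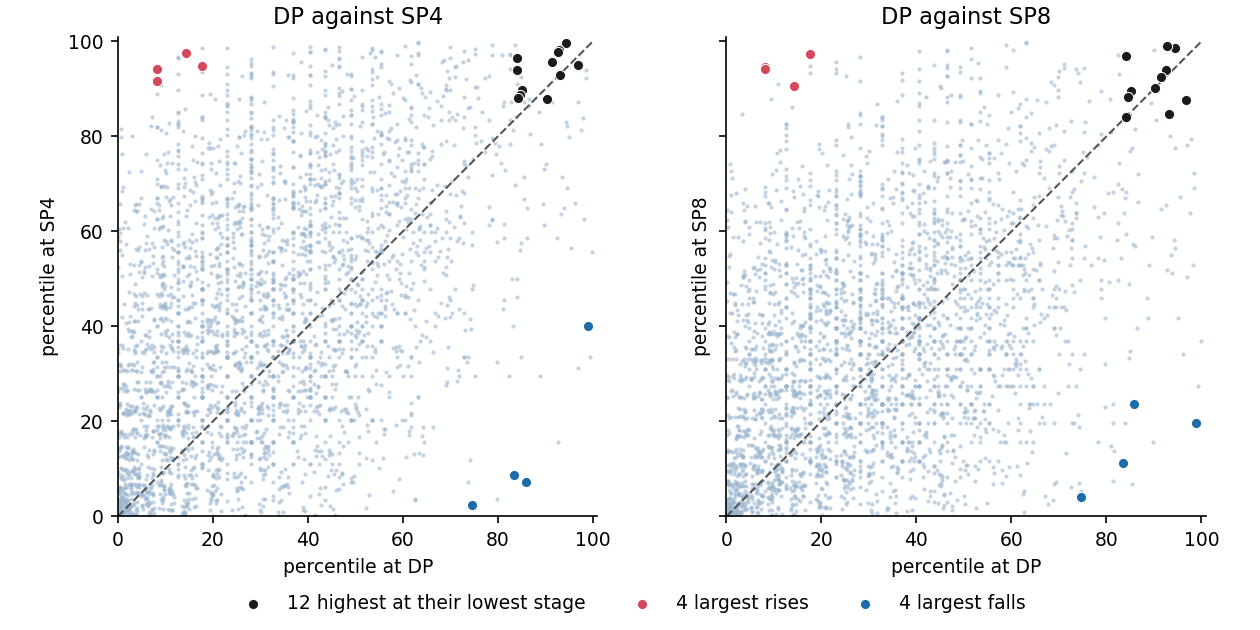
Percentile of fold enrichment at DP (horizontal) against SP4 (left) or SP8 (right) for the 3286 regions, with the diagonal dashed. Black points are the 12 regions that were highest at their lowest stage, red points the 4 largest rises (DP percentiles of 8.17 to 17.6) and blue points the 4 largest falls. More points lie above the diagonal than below it in both panels.

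The region that was highest at its lowest stage, chr1:137798816-137799160, lay between genes, 263700 bp from *Ptprc*, which encodes the phosphatase CD45. It stood at the 94.4 percentile in DP, 99.7 in SP4 and 98.6 in SP8 cells, and it had fold enrichments of 20.1, 35.6 and 29.5. The second, chr10:116613155-116613766, lay 31643 bp from *Cnot2*, a subunit of the CCR4-NOT deadenylase complex, at 92.9, 98.3 and 99.1. Intronic positions prevailed among the others. *Erc1*, which encodes a scaffold of the cell cortex, had a pair of them, chr6:119725453-119725933 at 92.6, 97.8 and 93.9 and chr6:119749133-119749608 at 91.4, 95.7 and 92.5. An intron of *Senp1*, a SUMO protease, held chr15:98067493-98067840, at 96.8, 95 and 87.7. An intron of *Casp8*, the initiator caspase of death receptor signalling, held chr1:58806730-58806953, at 84.4, 88.1 and 84.2. Further introns were those of *Tmem135* (lowest percentile 87.8), *Ankmy2* (85.2) and *Asap1* (84.6). The 1 promoter in the group was that of *Dpy19l3* (chr7:35729515-35730005), at 93.2, 92.9 and 84.8. The last pair lay between genes, 8922 bp from *Dennd4c* and 176916 bp from *Tbl1xr1*, and each had a DP percentile of 84.1, the lowest of the 12 at DP.

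The largest rises started from low peaks at DP. A region in an intron of *Rictor*, a subunit of mTOR complex 2 (chr15:6726354-6726870), had a percentile of 8.17 at DP, 94.2 at SP4 and 94.6 at SP8, and its fold enrichment went from 3.04 to 21.6 and 22.5. An intronic region of *Arf2*, a small GTPase of vesicle traffic, also had 8.17 at DP, with 91.8 and 94.1 at SP4 and SP8. *Ldlrad3* (intron, 14.3, 97.6 and 90.7) and *Mllt3*, a chromatin reader of the super elongation complex (exon, 17.6, 94.9 and 97.3), held the others. The largest falls left much lower peaks in mature cells. A region of 392 bp 18177 bp from the chromatin remodeller gene *Chd1* (chr17:15686398-15686789) went from 99.0 at DP to 40.1 and 19.8 at the SP stages. The region 89931 bp from *Frmd4a* had 83.5, 8.60 and 11.2, and that 4924 bp from *Smad4*, the common effector of TGF-beta signalling, 74.7, 2.48 and 4.08. An exonic region, 2712 bp from a start site of *Clec2f* and 20613 bp from the lectin gene *Clec2g*, had 85.9, 7.33 and 23.7. In all of these falls the DP peak was high, so a region kept by presence alone could still lose most of its height.

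SP4 exceeded SP8 by over 25 points in 566 regions (17.2%), and SP8 exceeded SP4 in 172 (5.23%). The median of SP4 minus SP8 was 5.30 points, against 0.625 in regions called at all 4 stages. Regions called at SP4 and SP8 alone also stood higher at SP4, with medians of 37.0 and 31.0. The percentile was thus more often higher at SP4. The SP4 list is longer, with 115074 peaks against 104411 at SP8, which can raise the percentiles of its low peaks. The part of list length in this excess was not tested. The largest excess at SP4 was at chr17:3574725-3574938, 16943 bp from *Tfb1m*, with 84.0 at SP4 and 11.7 at SP8. It was followed by exonic regions of *Rgs3*, a regulator of G protein signalling (80.4 and 8.61), of *Actr8* and *Il17rb*, the latter a cytokine receptor gene (80.7 and 9.48), and of *Stradb* (84.5 and 15.7). On the other side, a region 13167 bp from *Mfhas1* had 92.8 at SP8 and 15.6 at SP4. Intronic regions of *Igf2r*, the mannose 6-phosphate receptor (71.0 at SP8 and 5.84 at SP4), *Colq* (68.0 and 3.13) and *Fntb*, the farnesyltransferase beta subunit (74.7 and 9.84), came next. Presence at both SP stages thus covered sites that were strongly unequal between the lineages.

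The regions were mostly distal. Introns held 1667 (50.7%, 95% Wilson interval 49.0 to 52.4%), intergenic sequence 953 (29.0%), exons outside promoters 432 (13.1%) and promoters, the 200 bp upstream of a transcriptional start site (TSS), 234 (7.12%, 6.29 to 8.05%). The promoter share was 25.2% in regions called at all 4 stages, 4.32% in those called at DP alone and 3.99% in those called at SP4 and SP8 alone. These intervals cover counting error only, since regions are not replicates. The median distance to the nearest TSS was 6154 bp (quartiles 1531 and 14880 bp). It was 3145 bp for regions called at all 4 stages, with a Kolmogorov-Smirnov statistic of 0.188 (p = 3.68e-96, n = 3286 and 63369, Bonferroni-corrected over 3 pairs) and the same direction on 19 of 19 chromosomes. Against regions called at SP4 and SP8 alone, with a median of 6780 bp, the statistic was 0.0605 (p = 4.02e-07, n = 3286 and 7101) and the direction held on 15 of 19 chromosomes. Against regions called at DP alone, with a median of 6369 bp, it was 0.0347 (p = 0.0159, n = 3286 and 9619), and only 9 of 19 chromosomes had the same direction as the medians. These p-values treat each region as independent, although regions share the pooled libraries and can lie close together, and they measure no spread between mice. By the medians and the chromosome counts, the kept regions were more distal than those open at all stages. The differences from the other stage-restricted classes were small.

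They nevertheless lay closer to constitutively open chromatin than the other late classes did. The nearest region called at all 4 stages was a median of 2514 bp away, compared with 4780 bp for regions called at DP alone and 4031 bp for those called at SP4 and SP8 alone. In the 100 bp around the summit the mean GC content was 51.6%, between 48.8% (SP4 and SP8 alone) and 53.6% (DP alone), and it was 55.4% in regions called at all 4 stages. CpG dinucleotides numbered 1.75 per window on average, against 3.08 in regions called at all 4 stages and 1.54 at DP alone. Repeat-masked bases made up 15.3% of these windows, against 9.10% in regions called at all 4 stages, 16.3% at DP alone and 15.1% at SP4 and SP8 alone. In GC content the regions thus stood between the DP-restricted and the SP-restricted classes. Another member lay within 20 kb of 832 regions (25.3%), and 18 runs held 4 or more members less than 20 kb apart, the longest with 15.

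Of 20815 protein-coding and TCR constant genes, 2246 (10.8%) had at least 1 such region within the gene or 10 kb of it, and 73 had 4 or more. Genes differ in length and in how many regions they hold, so the number is set beside all merged regions of the gene. *Satb1*, which encodes a chromatin organiser of thymocytes, stood out with 14 of 66 regions (21.2%) in a gene of 97104 bp. *Camk4*, a calcium-dependent kinase of T cells, had 10 of 45 (22.2%). *Ptprc* had 7 of 49 (14.3%), *Slit3*, an axon guidance ligand, 7 of 46 (15.2%), *Ext1*, a heparan sulfate synthase, 8 of 62 (12.9%) and *Mad1l1*, a mitotic checkpoint gene, 8 of 92 (8.70%). *Foxp1*, a forkhead factor that keeps naive T cells quiescent, had 8 of 216 (3.70%). The other genes among the 10 with the most members were long predicted models. *Gm20388* extends over 4434882 bp and had 16 of 1140 regions (1.40%), *Gm20696*, which overlaps *Foxp1*, 9 of 158 (5.70%), and *Gm45062* 7 of 66 (10.6%). Since these genes were picked for their number of members, their shares describe them and are not set against the share of all regions.

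The 14 members at *Satb1* (chromosome 17, minus strand) were spread over almost the entire gene, with DP summits from 9067 to 105837 bp downstream of its 5′ end. Of its 66 regions, 15 were called at all 4 stages, 5 at DP alone, 4 at SP4 and SP8 alone and 2 at DN alone. By fold enrichment the members were low, with a median percentile of 3.89 at DP (range 0.238 to 21.1), of 5.05 at SP4 (range 0.266 to 62.9) and of 13.2 at SP8 (range 0.447 to 51.6). Ranked by −log10 q, they were nearer the middle of the lists, with medians of 21.6, 41.3 and 33.3. Fold enrichment is a ratio over the local background, and the rank of these members thus depended on the measure. The highest member by its lowest stage, chr17:51727380-51727537, lay downstream of the gene (21.1 at DP, 62.9 at SP4 and 23.7 at SP8), and a region spanning an exon, chr17:51805201-51805981, went from 3.69 at DP to 22.3 at SP4 and 51.6 at SP8. At *Camk4* the members stood higher, with medians of 34.3 at DP, 68.7 at SP4 and 58.5 at SP8, while its highest by its lowest stage, in an intron, had 55.4 at DP, 78.4 at SP4 and 70.8 at SP8. *Foxp1* had an intronic region, chr6:99350379-99350945, that went from 28.1 at DP to 93.4 at SP4 and 96.7 at SP8.

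**Figure D3:**
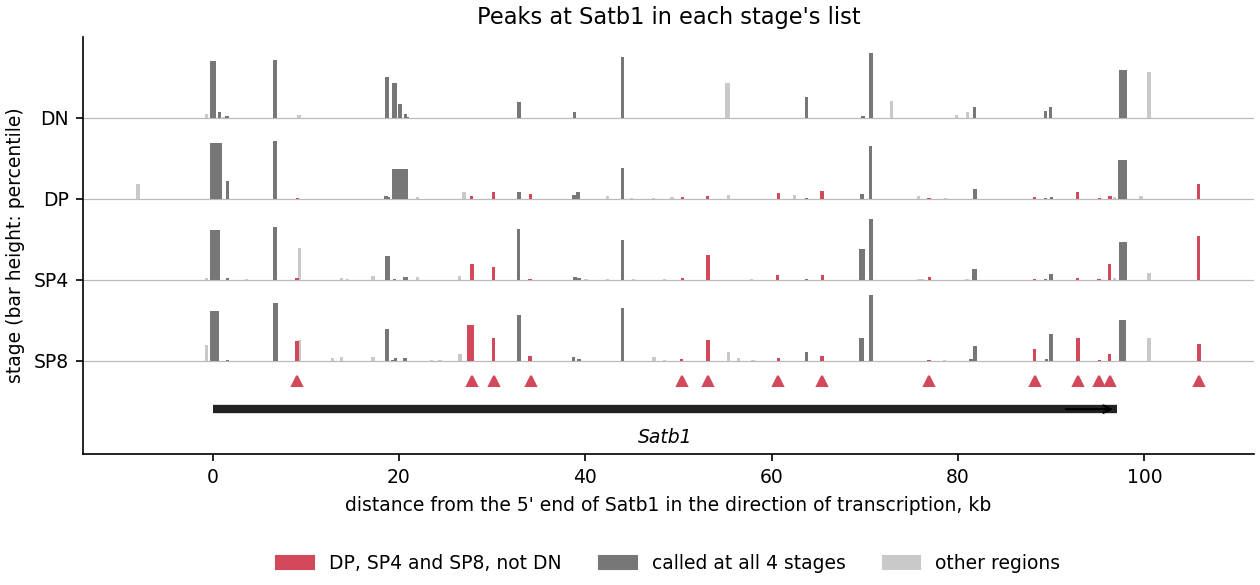
Peaks of the 4 lists at *Satb1*, by distance from its 5′ end in the direction of transcription (kb), with bar height set by the fold enrichment percentile of the stage's list. Red bars and triangles mark the 14 members, dark bars the 15 regions called at all 4 stages and light bars other regions; the black bar is the gene. The members are spread along the gene.

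Genes of known function in these cells were read from 14 lists, each against the 1.77% of all merged regions and the 10.8% of all genes. A gene that holds more regions is more likely to have a member. The median number of regions per gene was 39.5 for T lineage transcription factors and 23.5 for TCR signalling. It was 4 for erythroid genes and 6 over all genes, so counts of genes with a member are not comparable between lists. T lineage transcription factors had a member at 11 of 16 genes, with 40 of 733 regions (5.46%), or 26 of 667 without *Satb1*. Besides *Satb1*, the most were at *Ets1* (5), *Lef1* (4) and *Runx1* (4). At *Ets1*, neighbouring intronic regions at chr9:32726654-32727032 and chr9:32727200-32727496 fell after DP, from 66.4 to 18.8 at SP4 and 20.9 at SP8 and from 47.5 to 6.75 and 1.26. The *Ets1* member that was highest by its lowest stage instead rose from 26.2 to 59.4 at SP4 and 39 at SP8. *Lef1*, the partner of TCF1, showed the same contrast, with 21.3 at DP, 74.7 at SP4 and 66.1 at SP8 for chr3:131167796-131168190 and 56.2, 18.3 and 10.4 for chr3:131159240-131159487. By the same measure the highest member at *Runx1* had 39.2, 59.5 and 57.8. Ranked by −log10 q the falls were smaller, with 80.6, 65.3 and 59.4 and with 67.6, 59.1 and 30.5 for the *Ets1* pair and 82.1, 70.8 and 63.5 for the *Lef1* region. Single regulators thus carried kept regions that rose and others that fell, by amounts that depended on the measure.

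Genes of thymic egress and naive T cells had a member at 5 of 12 genes, with 22 of 525 regions (4.19%). After *Foxp1* came *Foxo1*, which drives expression of trafficking receptors, with 6 members (highest 59.8 at DP, 34.9 at SP4 and 53.3 at SP8), *Bach2*, a repressor of effector programs, with 5 (highest 61.8, 82.9 and 82.2) and *Socs3*, a cytokine signalling inhibitor, with 2. Of 43 regions at the genes of this list that were called at DP and not at DN, 51.2% were kept at both SP stages, and for the T lineage transcription factors it was 36.4% of 110, against 19.9% of all regions called at DP and not at DN. *Satb1* alone gave 26 of these 110. The share was 20% for the DP program, 22.4% for TCR signalling and 42.9% of only 7 such regions for the myeloid list, so the lists varied widely. The E protein and Id list had a member at 4 of 6 genes and 6 of 155 regions (3.87%), with 2 each at *Id3* and *Tcf12* and 1 each at *Id2* and *Tcf4*. The higher *Id3* member by its lowest stage lay 8319 bp upstream of the gene, at 59.6, 46.6 and 38.5.

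The TCR and CD3 list had 6 members among 104 regions (5.77%), of which 4 were at *Trac*, the TCR alpha constant gene, and 1 each at *Cd3e* and *Cd247*. The *Trac* members were low by fold enrichment at DP, with percentiles of 0.183 to 18.9, and reached 17.6 to 35.4 in SP4 cells and 22.4 to 43.2 in SP8 cells. By −log10 q their medians were 40.2 at DP, 68.3 at SP4 and 74.0 at SP8. These *Trac* sites were thus more prominent in mature cells than in DP cells on both measures. TCR signalling genes had a member at 11 of 18 genes and 15 of 525 regions (2.86%), among them the kinases *Fyn* (3) and *Prkcq* (2), with 1 at the ubiquitin ligase gene *Cbl*. The higher *Prkcq* member, in an intron, had 43.7 at DP, 52.9 at SP4 and 29.0 at SP8. By −log10 q it had 30.6, 60.4 and 40.6, so its fall from DP to SP8 turned into a rise. Coreceptor and adhesion genes had a member at 4 of 12 genes and 4 of 198 regions (2.02%), close to all regions. They were at *Cd28*, the costimulatory receptor (intron, 84.1, 50 and 68.3), *Cd6* (9.37, 61.0 and 87.9), *Cd2* (11.1, 14.6 and 25.2) and *Cd8b1* (in an exon of *Smyd1* within 10 kb, 21.8, 22.0 and 4.11).

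Genes of the DP program had a member at 6 of 14 genes and 8 of 250 regions (3.20%). *Ccr9*, a thymic chemokine receptor, had 3, the highest with 45.3 at DP, 60.0 at SP4 and 54.6 at SP8. *Rag2*, a subunit of the recombinase, had a region upstream of the gene at 15.4, 49.3 and 28.6. By −log10 q it had 44.4, 51.35 and 28.3, so its direction from DP to SP8 turned. *Aqp11* and *Endou* had regions with fold enrichment percentiles of 1.02 and 0.760 at DP, 27.9 and 55.1 at SP4 and 36.4 and 11.0 at SP8. By −log10 q they had 16.9 and 31.2 at DP, 45.0 and 69.8 at SP4 and 43.9 and 30.45 at SP8. How low they were, and whether *Endou* rose from DP to SP8, thus depended on the measure. Genes of the positive selection response had a member at 5 of 14 genes on chromosomes with peaks and 8 of 335 regions (2.39%), with 3 at the survival gene *Bcl2*, 2 at *Nfatc2* and 1 at each of 3 others, among them *Ikzf2* and *Nfatc1*. Genes of DN cells and progenitors had a member at 4 of 16 genes and 5 of 296 regions (1.69%), next to the value of all regions. These included 2 at *Notch1*, of which an intronic region went from 25.6 at DP to 79.9 at SP4 and 82.6 at SP8 and the other from 52.2 to 1.71 and 35.1, and 1 each at *Flt3*, *Notch3* and *Il2ra*. The *Il2ra* region lay 7444 bp upstream, with 0.472 at DP, 65.7 at SP4 and 54.8 at SP8.

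Lists of other lineages did not stand apart from the 1.77% of all regions in 1 direction. B cell genes had 0 of 107 regions, erythroid genes 0 of 35, neuronal genes 2 of 99 (2.02%), both at *Rbfox3*, natural killer and innate lymphoid genes 4 of 183 (2.19%) and myeloid genes 3 of 85 (3.53%). The natural killer members were 3 at *Rora* and 1 at the promoter of *Il2rb*, a receptor chain that T cells also use, at 2.33, 40.9 and 42.4. The myeloid ones were at *Adgre1* (53.4 at DP, 98.5 at SP4 and 57.0 at SP8), *Csf1r* and *Itgam*. With so few members in each list, single genes set these shares. At start sites, *Zbtb7b*, which directs the CD4 fate, had a peak at SP4 alone (percentile 56.4), and *Ptcra*, the pre-TCR chain, had percentiles of 94.5 and 92.3 in DN and DP cells but of 28.2 and 15.7 in SP4 and SP8 cells. *Csf1r*, *Klf1*, *Ncr1* and *Klrb1c* had no peak at their start sites at any stage, whereas *Pax5* (90.6) and *Lyz2* (88.4) had one at DN alone. Some of these start sites thus differed between the sorted stages, but those of other genes were less tied to a stage. *Cd4* had its highest percentile in DN cells (37.2), against 16.5 in SP4 cells. *Kit* and *Il2ra*, from the list of DN cells and progenitors, were highest in SP8 cells (93.6 and 93.4). *Ccr7*, from the egress list, was highest in DN cells (98.3), and *Runx3* varied little (93.5 to 95.6). The part of other cells in the DN list was not tested.

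Of the 19 merged regions in the window at *Cd4*, 0 were members, as were 0 of 20 in the window at *Trb*, and the window at *Cd8a* and *Cd8b1* held 4 of 49. With a share of 1.77% over all regions, windows of this size would hold few members or none. Between the *Cd8* genes, chr6:71352171-71352572 had 38.5 at DP, 63.4 at SP4 and 52.3 at SP8, and chr6:71360353-71360539 had 38.7, 55.2 and 7.78. By −log10 q the first had 63.2, 62.6 and 71.7 and the second 60.1, 55.1 and 40.0, so neither rose from DP to SP4 on that measure. The other members of the window lay at exons of *Smyd1*, upstream of *Cd8b1*. Near *Gata3*, the factor of CD4 fate, 3 of 93 regions were members, and the one over the 5′ end of the gene, chr2:9889830-9890071, fell from 36.1 at DP to 4.97 at SP4 and 9.97 at SP8. Another, chr2:9592677-9592948, lay 264129 bp from the gene and was highest at SP4, at 24.5, 61.5 and 21.2. It covered the start site of a transcript that is not protein-coding. The third, chr2:9851965-9852144, lay 4933 bp from it, at 45.8, 35 and 16.9.

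Motifs were matched in the 100 bp centred on the DP summit, or on the SP4 summit in regions without a DP peak. An ETS match was present in 673 regions, or 20.5% (19.1 to 21.9%). The share was 18.9% (18.6 to 19.3%) in regions called at all 4 stages, 15.0% (14.3 to 15.7%) at DP alone, 13.8% (13.0 to 14.6%) at SP4 and SP8 alone and 15.8% in all merged regions. The members exceeded the DP-only and the SP-only class on 19 of 19 chromosomes each, but regions called at all 4 stages on only 11. In windows 500 bp to either side of the members' summits the ETS share was 4.73%, so these matches were concentrated under the peak. In the 20 bp bin at the summit itself, 6.60% of the members had a match, compared with 5.46% of the regions called at all 4 stages.

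For the E-box, the site of E proteins, the members were low. A match was present in 457 of them, or 13.9% (12.8 to 15.1%), against 29.0% (28.1 to 29.9%) at DP alone, 22.8% (22.5 to 23.1%) at all 4 stages, 10.0% (9.32 to 10.7%) at SP4 and SP8 alone and 24.3% in all merged regions. The members were lower than the DP-only and the all-stage classes on 19 of 19 chromosomes each. Away from the summits the classes differed less, with the members below the DP-only and all-stage classes but level with the SP-only class: 11.1% (10.4 to 11.9%) in members, 12.7% (12.2 to 13.1%) at DP alone, 12.4% (12.3 to 12.6%) at all 4 stages and 11.2% at SP4 and SP8 alone. Regions opened at DP thus differed at their summits by what followed, with E-box matches far above the flanks in those closed again and only somewhat above them in those kept. ROR matches, the site of RORγt, also fell from the DP-only class through the members to the SP-only class, with 6.62% (6.14 to 7.14%) at DP alone, 3.13% (2.59 to 3.79%) in members, 1.68% (1.58 to 1.78%) at all 4 stages and 1.14% (0.919 to 1.42%) at SP4 and SP8 alone. The flanks had 2.14% in members and 2.48% at DP alone.

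TCF7/LEF1 matches at the summit went the other way. They were present in 281 members, or 8.55% (7.64 to 9.56%), against 539 of 9619 (5.16 to 6.08%) at DP alone and 5.44% (5.26 to 5.62%) at all 4 stages, and were highest, at 10.4% (9.69 to 11.1%), at SP4 and SP8 alone. The members were above the DP-only class on 18 and above the all-stage class on 16 of 19 chromosomes. Their flanks had 6.74% (6.16 to 7.37%), also above the flanks at DP alone (5.78%, 5.46 to 6.12%) and at all 4 stages (5.76%, 5.64 to 5.89%). At SP4 and SP8 alone the flanks had 6.96%. The profile dipped 40 bp to either side of the summit in every class, in members to 1.46% and 0.943%, against 2.37% at the summit. RUNX matches were rare in the members, at 2.80% (2.29 to 3.42%), as at DP alone (2.61%), and were about as frequent in the flanks (2.53%), whereas regions called at all 4 stages had 6.35% (6.17 to 6.55%) and those called at SP4 and SP8 alone 5.75%. At the summit the members thus shared low RUNX with the DP-only class and higher TCF7/LEF1 with the SP-only class. Over whole regions, which are wider in the all-stage class, the direction against that class turned for TCF7/LEF1 (21.6% in members and 26.0% at all 4 stages), ETS (32.5%, lower than in that class) and ROR (7.73% and 10.1%).

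**Figure D4:**
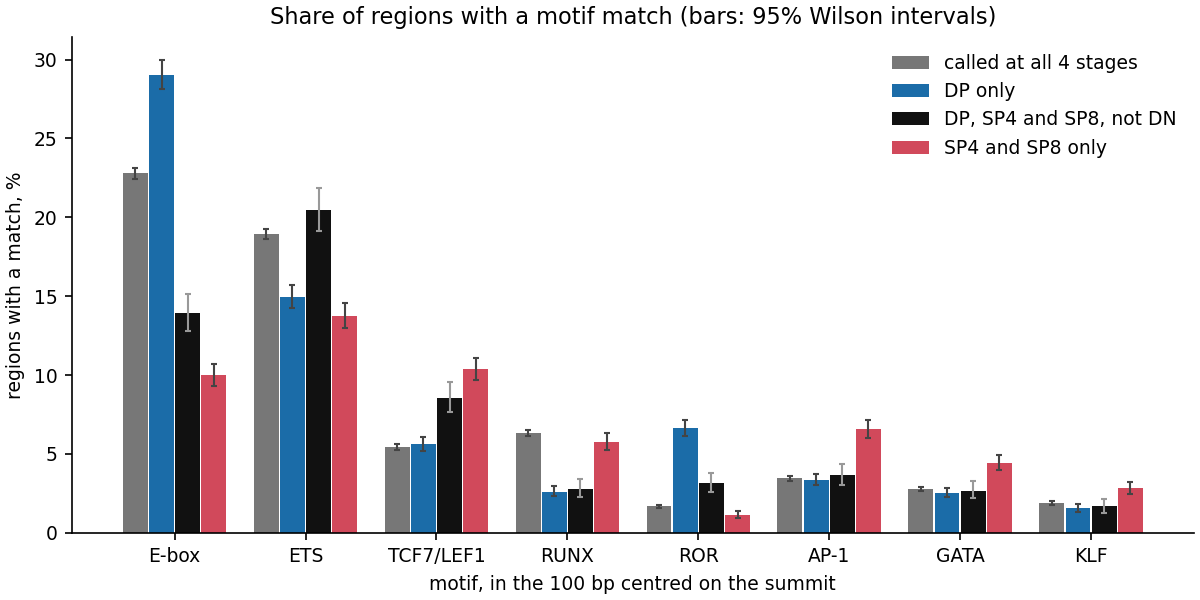
Percent of regions with a motif match in the 100 bp around the summit, for regions called at all 4 stages, at DP alone, at DP, SP4 and SP8 but not DN, and at SP4 and SP8 alone; error bars are 95% Wilson intervals. The members (black) are highest for ETS (20.5%), and for the E-box (13.9%), TCF7/LEF1 (8.55%) and ROR (3.13%) they lie between the DP-only and the SP-only class.

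**Figure D5:**
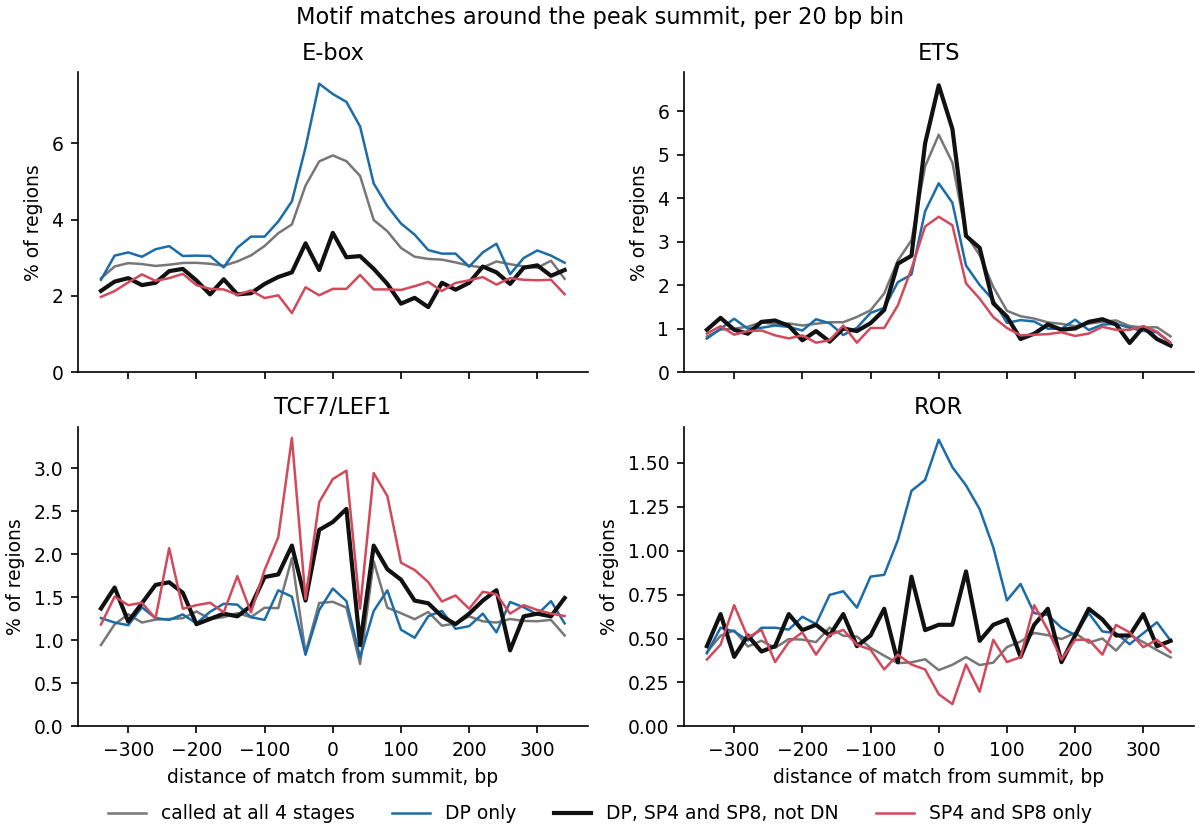
Percent of regions with a match centred in each 20 bp bin, by distance from the summit (bp), for 4 motifs and the same classes. The ETS curve of the members (black) peaks at 6.60% at the summit, while their E-box curve reaches 3.65% there, against 7.30% for regions called at DP alone.

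PKNOX/MEIS (TGACAG) was matched in 11.75% of members, against 10.7% at all 4 stages, 11.72% at DP alone and 12.63% at SP4 and SP8 alone. MYB (TAACTG or CAACTG) was matched in 8.76%, against 8.61%, 9.49% and 9.55%. The members were thus close to the other classes in both. The remaining motifs reported here were matched in few members. AP-1 (TGANTCA) was matched in 3.65% of members (3.06 to 4.35%), near the 3.45% of regions called at all 4 stages and the 3.38% at DP alone, but below the 6.56% at SP4 and SP8 alone, on 19 of 19 chromosomes. AGATAA, the GATA consensus, was matched in 2.68% of members and 4.45% of the SP-only class, and KLF (GGGTGTGG or GGGCGTGG) in 1.67% and 2.82%. GATA matches were more frequent in the flanks, with 4.93% in members and 5.63% in the SP-only class. CTCF was matched in 24 members (0.730%), above the 0.239% at DP alone, below the 1.92% at all 4 stages and close to the 0.789% at SP4 and SP8 alone. FOXO (GTAAACA) matches were present in 2.04% of members (1.61 to 2.58%), compared with 1.23% at DP alone, 1.24% at all 4 stages and 1.72% (1.44 to 2.05%) at SP4 and SP8 alone, on 12 of 19 chromosomes each. For AP-1, GATA and KLF the members thus resembled the classes already open at DP. In all, 1398 members (42.5%) had at least 1 of the E-box, TCF7/LEF1, ETS, RUNX and ROR motifs, against 46.3% where all 4 stages had a peak.

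Within the members, matches differed with the later course, which is a description since the course is read from the heights. Of the 114 regions that lost over 25 points at both SP stages, 16 had a ROR match (14.0%, 8.83 to 21.6%) and 25 an E-box (21.9%, 15.3 to 30.4%). Of the 438 that gained over 25 points at both, 8 had a ROR match (1.83%, 0.928 to 3.56%) and 52 an E-box (11.9%, 9.17 to 15.2%). TCF7/LEF1 matches were present in 7.02% (3.60 to 13.2%) of those that fell and 11.0% (8.37 to 14.2%) of those that gained, with overlapping intervals, and ETS matches in 16.7% and 18.9%. Kept regions that lost height thus leaned to the DP-only class in ROR and E-box content. For these motifs the intervals of those that gained height include the shares of all members. RUNX did not show such a lean, with 5.26% (2.43 to 11.0%) in those that fell and 3.42% (2.09 to 5.57%) in those that gained. KLF matches were present in 2.97% (1.74 to 5.01%) of those that gained, an interval above the 1.67% of all members. In those that fell the KLF share was 1.75% (0.482 to 6.17%).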

How the data were processed

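ATAC-seq reads of 4 mice were aligned to mm10 by the authors, down-sampled to the median depth of the libraries, pooled by stage and turned into peak lists with MACS2 at a 5% FDR. The fold enrichment of each peak, a ratio over the local background, and its −log10 q-value were deposited by the authors as the caller gave them. Version numbers are not given in the sources used here. Because the libraries were pooled, no value has a replicate error, and a stage without a peak may hold signal under the threshold.

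Peaks were merged where they shared at least 1 bp, and heights were ranked within each list. All peaks lay on chromosomes 1 to 19, and 0 reached past a chromosome end. Genes came from GENCODE M21 and RefSeq (251533 transcripts). Distances to a TSS were compared with the two-sided Kolmogorov-Smirnov test. Python 3.11.15, numpy 2.4.6, pandas 2.3.3, scipy 1.17.1, matplotlib 3.10.9 and pysam 0.24.0 were used, and the code was tested on simulated data. Consensus motifs (25) were matched without mismatch, on both strands; KLF and RUNX letters can overlap. Intervals are 95% Wilson intervals.

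The regions and lists were chosen with earlier results of these data known. Regions named are the 12 with the highest lowest-stage percentile, the 4 at each extreme of the shift from DP to SP and of SP4 minus SP8, those at the 10 genes with the most members and at up to 4 genes per list, and those in windows at *Cd4*, *Cd8*, *Trb* and *Gata3*. The highest member of a gene is that with the highest lowest-stage percentile. *Ets1*, *Lef1*, *Notch1* and *Satb1* regions beyond the rule were named after their values were seen. Some genes under these rules are not reported here. Alternatives varied the merging, the q-value, list lengths, promoters, transcripts, motif windows and gene flanks.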

Additional observations from a re-analysis of the deposited data

How the results depend on the processing

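The number of regions stayed between 2322 and 3287 under 6 alternatives for merging, q-value and distance to DN. With equal numbers of peaks from each list it was 7160, since the longer DN list then lost the most peaks. The promoter share was 13.9% with promoters of 1 kb, 3.47% at the DP summit and 4.47% with protein-coding transcripts, which also moved the median TSS distance to 16680 bp. Ranked by −log10 q, the median percentile was 30.6 at DP and 44.2 at SP4. Genes with a member numbered 1493 for gene bodies alone and 4561 within 50 kb.

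Over whole regions and in 200 bp windows, shares rose to 30.8% and 24.2% (E-box), 21.6% and 16.6% (TCF7/LEF1), 32.5% and 28.7% (ETS), 7.58% and 5.45% (RUNX) and 7.73% and 5.66% (ROR). In 200 bp windows each kept its direction against regions called at all 4 stages. Over whole regions, which are wider in that class, TCF7/LEF1, ETS and ROR were lower in the members instead. Leaving out promoters or repeat-masked windows, chosen after seeing the data, moved none of these shares beyond its interval.

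No paired analysis was possible because each list pools the 4 mice of a stage. For the same reason the regions could not be found again without each mouse in turn. Read depth limits which peaks are called, and the lists do not give it.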
